A study of Mus musculus with 40 samples.

Results

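RLTR45 and ERVB4 are names for groups of mouse endogenous retroviruses of the ERVK class, and here they were followed in naive mouse embryonic stem (mES) cells and in epiblast-like cells (EpiLCs) with and without the lamins and the lamin B receptor, LBR. The members were every annotated copy whose name begins with RLTR45 or ERVB4 in the table of single transposable element (TE) copies, and the same families in the table of TE families. They numbered 7177 of 3799629 annotated copies and 11 of 1243 families. The families were chosen by their measured levels, since RLTR45-int and ERVB4_2-I_MM rose strongly in naive cells lacking the lamins and LBR together, so every value from those libraries is given as a description, without a test. Comparisons that leave those libraries out were tested, although those in naive cells share their WT libraries with the comparison that chose the members.

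Total RNA was sequenced from 8 groups in 40 libraries, with 4 genotypes at each of 2 stages. Wild-type (WT) cells, with 8 libraries a stage, were compared with LBRKO cells (frameshift mutations in *Lbr*), TKO cells (no *Lmna*, *Lmnb1* or *Lmnb2*) and QKO cells (*Lbr* also disrupted in TKO cells), with 4 libraries of each mutant a stage. mES cells were grown without serum or feeders in medium with 2 kinase inhibitors and LIF, and EpiLCs, a culture model of the epiblast around implantation, were collected 48 h after transfer to FGF and Activin A. All QKO libraries stem from 1 clone of the TKO line, and which of several LBRKO clones gave a library is not in the labels. Libraries of a genotype came from separate culture wells, so p-values measure spread between wells. The methods also report karyotype changes within the lines, among them extra copies of chromosome 8 and loss of the Y.

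An endogenous retrovirus is a retroviral genome that entered the germ line and is inherited like any other locus. A complete copy, a provirus, has an internal part with the viral genes between a pair of long terminal repeats (LTRs). The upstream LTR carries the promoter, and the downstream LTR carries the signal that ends the transcript. Recombination between the LTRs removes the internal part and leaves a solo LTR, the commonest form in the genome. In mES cells ERVK copies are silenced mainly by H3K9 methylation laid down by SETDB1, which KRAB zinc finger proteins and TRIM28 bring to the provirus, and after implantation DNA methylation takes a larger part.

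In the annotation the suffixes -int and -I mark internal parts, and RLTR45 and names with -LTR mark LTRs. The 7177 copies were pieces of retroviruses, so copies on the same strand no more than 1000 bp apart were joined, which gave 4271 loci. Of these, 2695 held LTR pieces alone, 618 had an internal part with an LTR at both ends, 543 had an LTR at 1 end and 415 had none. A set of 162 loci kept at least 5000 internal bases and are called full-length here. Their median span was 7430 bp, from 5020 to 9674 bp. In 93 of them both LTRs were at least 400 bases long, and the median identity between the LTRs of 1 provirus was 96.69%, with 27 pairs at 99% or more. LTRs are identical when a provirus integrates. The longest open reading frame of a full-length locus had a median of 209 codons, and 4 loci had one of more than 500 codons.

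In full-length loci ERVB4_2-I_MM lay mostly in the same proviruses as RLTR45-int, while many loci with RLTR45-int lacked ERVB4_2-I_MM. Of the 162 full-length loci, 50 were made of these 2 internal families together, with a median LTR identity of 99.15%, and 54 were made of RLTR45-int alone, with 92.74%. The remaining full-length loci held ERVB4_2-I_MM alone, ERVB4_1, ERVB4_1B or ERVB4_3 parts, or other mixtures. Full-length loci lay between genes in 104 cases, overlapped annotated exons in 42 and lay in introns in 16. In introns, 15 of 16 ran opposite to the gene.

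Sequences from GRCm39 show what the leading copies have in common. Downstream of the 5′ LTR a retrovirus has a primer binding site, where a cellular tRNA primes reverse transcription. The loci below are the 5 proviruses with the most reads in QKO mES cells, each printed from the end of its 5′ LTR, with the primer binding site, of the lysine tRNA type, in capitals.
Provirus in *Gm49089*, chr15:33831716-33831754, plus strand: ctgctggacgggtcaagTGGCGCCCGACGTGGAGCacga
Provirus over *Gm11800*, chr4:8117534-8117572, plus strand: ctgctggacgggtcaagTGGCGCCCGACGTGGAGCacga
Provirus in *Drd3*, chr16:43591387-43591425, minus strand: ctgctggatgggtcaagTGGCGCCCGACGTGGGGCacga
Provirus in *Gm63874*, chr8:20120108-20120146, plus strand: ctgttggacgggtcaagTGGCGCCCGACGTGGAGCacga
Provirus near *Gm57982*, chrY:43886722-43886760, minus strand: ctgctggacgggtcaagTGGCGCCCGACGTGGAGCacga
The opening letters of this site, TGGCG, were found within 40 bases of the LTR end in 89 of the 162 full-length loci. The rest of the site was not checked in that count. Loci without a member LTR at the 5′ end could not be searched.

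The LTRs of these proviruses share a stretch with the letters TTTAAA, a form of TATA box. It is printed below in capitals within its surroundings in the 5′ LTR.
Provirus over *Gm11800*, chr4:8117364-8117419, plus strand: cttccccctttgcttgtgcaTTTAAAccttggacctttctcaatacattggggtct
Provirus in *Gm63874*, chr8:20119938-20119993, plus strand: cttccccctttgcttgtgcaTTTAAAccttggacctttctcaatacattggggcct
Provirus near *Gm57982*, chrY:43886875-43886930, minus strand: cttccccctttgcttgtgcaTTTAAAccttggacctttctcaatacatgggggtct
TTTAAA was searched on the strand of the element. Among LTR copies of 440 to 540 bases, 63.9% of the 2138 member copies held it, against 25.8% of 52913 copies of all other LTR families of that length. The share was 89.9% in ERVB4_2-LTR_MM and 90.7% in ERVB4_1B-LTR_MM, 60.4% in RLTR45, 18.3% in ERVB4_1C-LTR_Mm and 1.1% in ERVB4_3-LTR_MM. These are matches to letters and do not show where transcripts start.

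The locus with the most reads was an exception to the usual layout. Its 5′ LTR piece has 136 bases, chr15:33831595-33831730, which align to bases 334 to 469 of a full LTR. They begin 29 bases after the start of TTTAAA there. The bases are printed because the promoter part of the LTR is missing from them.
5′ LTR part of the provirus in *Gm49089*, plus strand: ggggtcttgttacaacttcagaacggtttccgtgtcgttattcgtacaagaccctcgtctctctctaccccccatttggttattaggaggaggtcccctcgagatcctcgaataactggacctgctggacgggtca
Its 3′ LTR piece aligns to bases 1 to 356 of 469 and is followed by a run of 24 A, in capitals here. How the locus came to have these ends was not tested, and it is called a provirus here for its internal part.
3′ end of the provirus in *Gm49089* with the following bases, chr15:33838576-33838655, plus strand: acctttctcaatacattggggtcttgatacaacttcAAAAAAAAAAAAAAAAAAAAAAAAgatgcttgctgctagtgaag

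The internal families dominated the RNA of the group. Values are CPM, read counts divided by the library's effective total in M reads, with SD over libraries, and family values count reads that match several places as well as unique ones. RLTR45-int stood at 51.3 ± 8.59 CPM in WT mES cells (n = 8; lowest 38.8, median 49.0, highest 63.3). In TKO mES cells the 4 libraries had 152, 157, 170 and 166 CPM, and in QKO mES cells 1073, 1126, 1179 and 1141 CPM. The groups did not overlap, and the QKO mean of 1130 CPM was 21.99-fold the WT level in the fit. In LBRKO mES cells the values were 35.1, 38.3, 29.7 and 29.8 CPM, all below the lowest WT library. In bulk RNA, fewer cells with a transcript and less of it per cell cannot be told apart.

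ERVB4_2-I_MM, the other internal family of these proviruses, followed at a lower level. It had 11.6 ± 2.08 CPM in WT, 6.74 ± 1.4 in LBRKO, 29.5 ± 2.84 in TKO and 182 ± 15.6 in QKO mES cells. ERVB4_3-I_MM rose from 0.643 CPM in WT to 2.49 ± 0.301 in TKO and 13.1 ± 1.11 in QKO mES cells. The LTR families moved less. In mES cells ERVB4_2-LTR_MM went from 4.66 (WT) over 10.5 (TKO) to 57.2 CPM (QKO). RLTR45 went from 14.9 over 23.9 to 55.9 CPM, and ERVB4_1C-LTR_Mm from 7.66 over 8.51 to 9.99 CPM. QKO mES cells against WT mES cells gave log2 differences of 4.46 for RLTR45-int, 4.36 for ERVB4_3-I_MM, 3.97 for ERVB4_2-I_MM and 3.62 for ERVB4_2-LTR_MM, against a median of 0.87 over the 1142 families tested, where 30.3% of families were past the thresholds upwards and 0% downwards. This comparison chose the members.

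**Figure D1:**
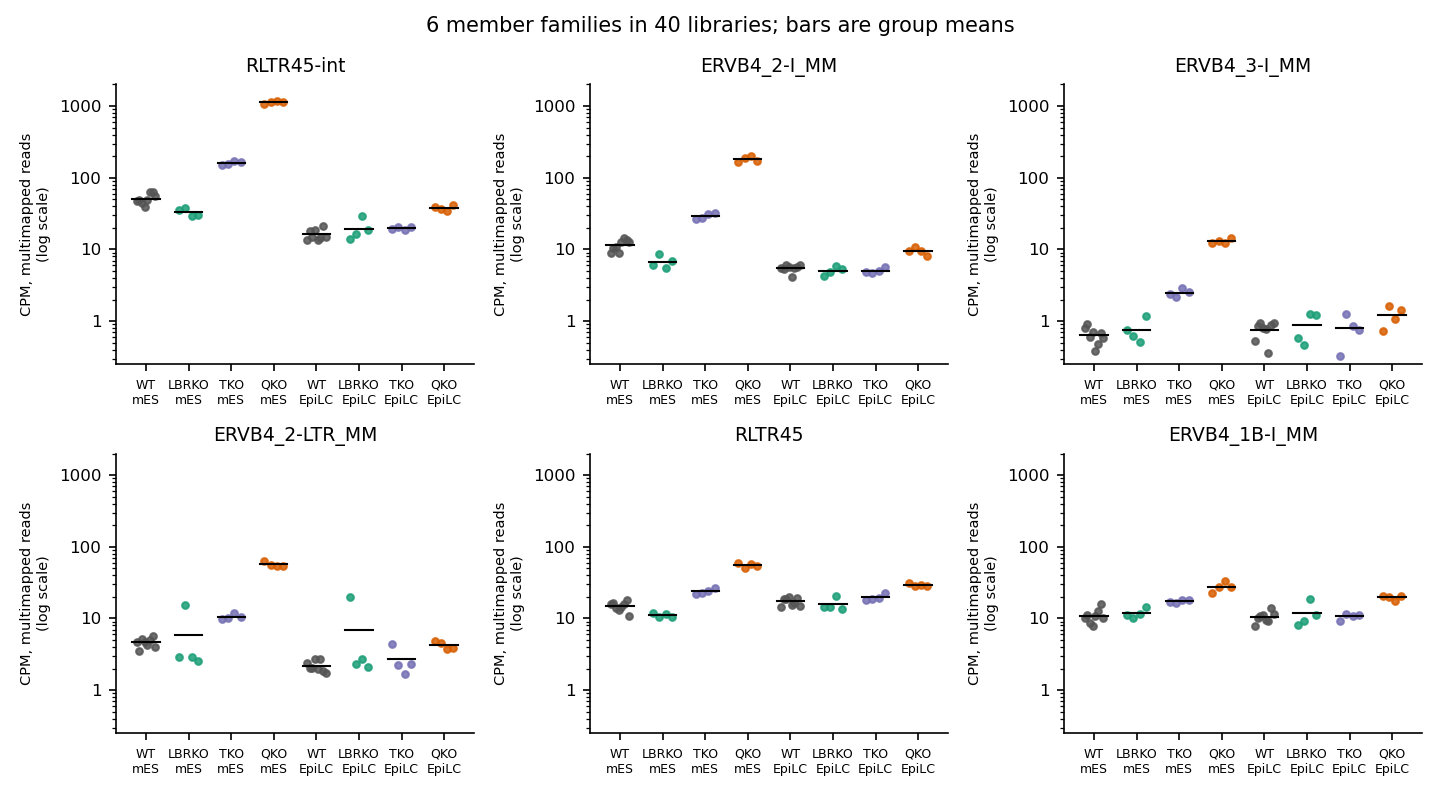
CPM (log scale, reads with several matches included) of 6 member families in each of 40 libraries by group, 8 libraries for WT and 4 for each mutant, with bars at group means. RLTR45-int and ERVB4_2-I_MM step up from WT to TKO to QKO mES cells without overlap and have means below WT mES cells in all EpiLC groups, and ERVB4_2-LTR_MM has 1 high library in each LBRKO group.

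TKO mES cells, which lack the lamins but keep LBR, had more RNA of these proviruses than WT mES cells. A family counted as changed when its adjusted p (edgeR quasi-likelihood test, Benjamini-Hochberg over all genes and families) was under 0.05 and its fold over 2. Of the 10 member families tested, 5 rose and none fell, where 2.28% of all families rose and 0.0876% fell, and the median log2 change was 0.93 over the members against 0.28 over all families. The eleventh, ERVB4_1-LTR_MM, had too few reads. By edgeR, RLTR45-int rose by 1.65 (log2, SE 0.12, adjusted p = 7.72e-14), ERVB4_2-I_MM by 1.34 (SE 0.11, adjusted p = 1.38e-12) and ERVB4_3-I_MM by 1.97 (SE 0.25, adjusted p = 1.08e-07). The LTR families ERVB4_2-LTR_MM and ERVB4_3-LTR_MM rose by 1.18 (SE 0.39) and 1.17 (SE 0.28).

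In naive cells without LBR RLTR45-int and ERVB4_2-I_MM were lower, but no member family passed both thresholds in LBRKO mES cells (0.525% of all families rose and 0.0876% fell), and the median log2 change was 0.02 over the members and 0.33 over all families. The log2 difference was −0.79 for ERVB4_2-I_MM (edgeR adjusted p = 2.63e-06) and −0.63 for RLTR45-int (edgeR adjusted p = 0.000311), both below the 2-fold threshold. From unique reads summed per family the differences were −0.39 (edgeR adjusted p = 0.104) and −0.36 (edgeR adjusted p = 0.0964). Other members lay above WT, with 0.61 for ERVB4_3-LTR_MM, 0.35 for ERVB4_2-LTR_MM and 0.26 for ERVB4_3-I_MM (edgeR adjusted p = 0.117, 0.56 and 0.532). For ERVB4_2-LTR_MM this rested on LBRKO mES 2, with 15.3 CPM. The other LBRKO libraries had 2.57 to 2.92 CPM, below the lowest WT library at 3.50 CPM. From unique reads its difference was −0.62 (edgeR adjusted p = 0.0532). The WT libraries themselves were not uniform, with 38.8 to 48.2 CPM of RLTR45-int in WT 1 to 4 and 49.7 to 63.3 CPM in WT 5 to 8. The 4 LBRKO values lay below both sets. Gene reads also differed, at 27.7 to 33.1 M in WT mES 1 to 4 and 39.4 to 46.6 M in WT mES 5 to 8. LBRKO mES libraries had 39.7 to 48.0 M, TKO 27.1 to 33.6 M and QKO 24.5 to 30.6 M. The labels name no batches, and the part of this in the differences between genotypes was not tested.

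In EpiLCs of every genotype, counting reads with several matches, the mean levels of RLTR45-int and ERVB4_2-I_MM lay below their WT mES means. From unique reads summed per family this did not hold for QKO EpiLCs. ERVB4_2-I_MM had 11.32 CPM there against 6.211 CPM in WT mES cells. RLTR45-int had 35.98 against 35.26 CPM, with overlapping libraries. In the other genotypes the EpiLC means lay below WT mES cells from unique reads too. The remaining values of this paragraph again include reads with several matches. RLTR45-int had 16.3 ± 2.82 CPM in WT EpiLCs (13.6 to 21.3), and the passage of WT cells from mES cells to EpiLCs lowered it by 1.66 on the log2 scale (SE 0.11, adjusted p = 6.20e-17, edgeR). ERVB4_2-I_MM fell by 1.08 and ERVB4_2-LTR_MM by 1.1, so that 3 of 10 member families fell and none rose, where 2.19% of all families fell and 2.19% rose. In TKO cells 4 of 10 fell (4.99% of all families fell and 1.4% rose), RLTR45-int by 3.03 and ERVB4_2-I_MM by 2.54. In LBRKO cells none of 10 passed in either direction (2.45% of all families rose, 1.05% fell), nor did any differ from the WT passage (0.263% each way). In an edgeR test of the difference itself, the fall was steeper in TKO than in WT cells for 3 families (1.4% of all families). The difference was −1.37 for RLTR45-int (SE 0.18, edgeR adjusted p = 9.43e-07), −1.46 for ERVB4_2-I_MM (SE 0.17, edgeR adjusted p = 5.56e-08) and −1.86 for ERVB4_3-I_MM (SE 0.39, edgeR adjusted p = 0.00103).

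TKO EpiLCs had 19.8 ± 1.01 CPM of RLTR45-int, and no member family passed the thresholds against WT EpiLCs (0.613% of all families rose, 0.263% fell). QKO EpiLCs had 38 ± 2.79 CPM, and RLTR45-int rose by 1.22 against WT EpiLCs (SE 0.13, adjusted p = 1.15e-10, edgeR). From unique reads summed per family the difference was 0.64, under 2-fold. With ERVB4_1B-LTR_MM, RLTR45-int was 1 of 2 member families of 10 that rose, near the 22.4% of all families that did, none fell (0%), and the median log2 change was 0.78 over the members and 0.81 over all families. Against TKO EpiLCs none of 10 passed the thresholds while 18.9% of all families rose and 0.0876% fell, although the log2 difference of RLTR45-int was 0.94 (edgeR adjusted p = 3.00e-06). ERVB4_2-I_MM went further up in QKO EpiLCs than the changes in LBRKO and TKO EpiLCs add up to, by 1.03 (adjusted p = 6.00e-05, edgeR), as did 3.68% of all families (0.175% went the other way). ERVB4_2-LTR_MM passed in LBRKO EpiLCs by 1.65 (edgeR adjusted p = 0.00174, 0.876% of all families rose), but 1 of the 4 libraries had 20.2 CPM and the others 2.13 to 2.68 CPM, and without that library no family passed.

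Reads with a single match locate part of this RNA. Over all member copies they came to 117 CPM in WT, 104 in LBRKO, 180 in TKO and 723 in QKO mES cells. Unique reads made 87.8% of the multimapped member total in WT mES cells and 41.7% in QKO mES cells (40.9 to 43.4% by library). The tables were made by different counters, so this ratio is not a share, and it was 117% in WT EpiLCs. With families summed from unique reads, 3 of the 10 member families passed both thresholds in TKO mES cells, all upwards. None passed the 2-fold threshold in the passage of WT cells. There ERVB4_2-LTR_MM and RLTR45-int were lower by 0.94 and 0.61, and ERVB4_1C-LTR_Mm higher by 0.87 (edgeR adjusted p = 8.01e-07, 2.39e-06 and 2.44e-05). Between the TKO and WT passages none passed both thresholds either. The differences were −0.99 for ERVB4_2-I_MM and −0.83 for RLTR45-int (edgeR adjusted p = 0.00287 and 0.004).

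The 162 full-length loci carried most of the change in unique reads. Summed over them, unique reads stood at 23.3 ± 4.89 CPM in WT, 14.3 ± 3.07 in LBRKO, 76.7 ± 4.64 in TKO and 558 ± 28.3 in QKO mES cells. They were 20% of all unique member reads in WT, 13.7% in LBRKO, 42.6% in TKO and 77.2% in QKO mES cells, and 8.45 to 13.1% in the EpiLC groups. All other member loci held 93.2 ± 9.89 CPM in WT and 164 ± 1.28 CPM in QKO mES cells. Among the full-length loci 47 exceeded 1 CPM in QKO mES cells, against 16 in TKO and 4 in WT mES cells, while 88 stayed under 0.1 CPM in QKO mES cells. Those with ERVB4_2-LTR_MM repeats were over 1 CPM in 34 of 55 cases and those with RLTR45 repeats in 6 of 55.

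A handful of loci made up most of the increase in unique reads. Reads with several matches cannot be placed at a locus. With them the member total went from 110 CPM in WT to 1496 CPM in QKO mES cells, so the share of single loci in the whole increase is not known. The unique member reads of QKO mES cells exceeded those of WT mES cells by 606 CPM, and 5 loci held 62.7% of that. The same 5 loci held 51.8% of the 63.5 CPM by which TKO exceeded WT mES cells. Without these 5, the full-length loci still had 11.0 CPM in WT, 8.12 in LBRKO, 31.6 in TKO and 166 in QKO mES cells.

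**Figure D2:**
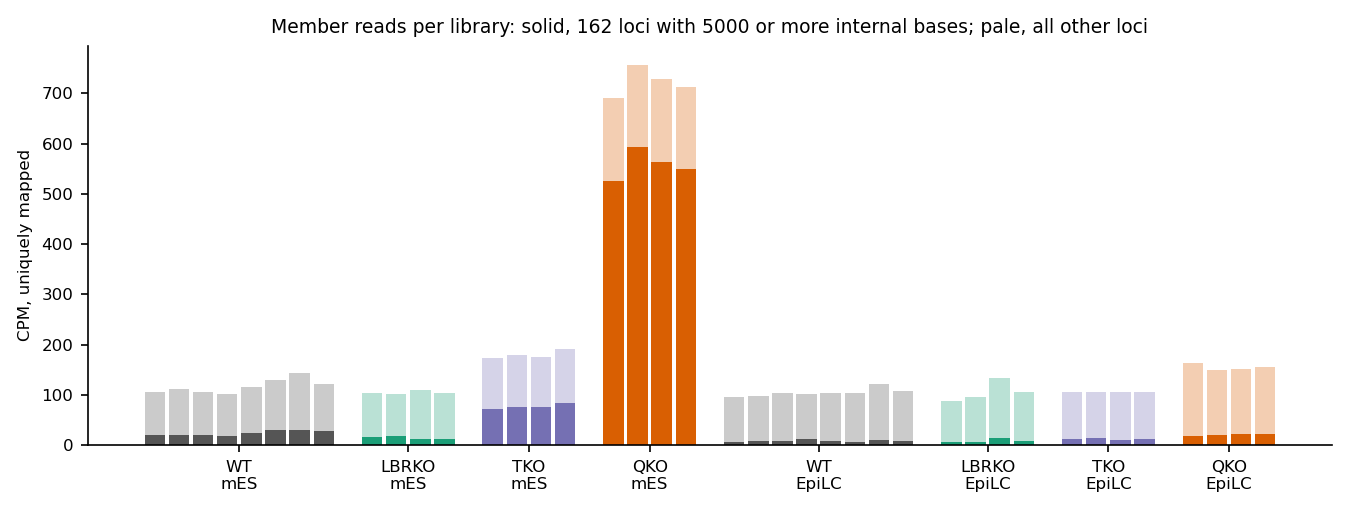
Unique member reads in CPM for each of 40 libraries, stacked as the 162 loci with 5000 or more internal bases (solid) and all other member loci (pale), bars starting at 0. The solid part reaches 558 CPM on average in QKO mES cells and 76.7 CPM in TKO mES cells, and stays small in all EpiLC groups, while the pale part is near 93.2 CPM in WT mES cells and 164 CPM in QKO mES cells.

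Single loci were then tested with all other TE copies in the model. Few had enough reads: 158 of the 4271 loci passed the filter on low counts, 120 of them when the QKO mES libraries were left out of the filter, and 58 of the 158 were full-length. The counts that follow are of tested loci, which are not all members. In TKO mES cells 50 rose and 7 fell, where 3.11% and 0.758% of all copies did, and with the filter set without QKO mES libraries 31 of 120 rose and 7 fell. By structure 38 of the 58 full-length loci rose, 10 of 58 with a shorter internal part and 2 of 42 with LTRs alone, and the median log2 changes were 2.15, 0.45 and −0.01 against 0.17 over all copies. Part of the full-length loci passed the filter only through the QKO mES libraries. With the filter set without those, 21 of 32 full-length loci rose, 8 of 49 with a shorter internal part and 2 of 39 with LTRs alone, with medians of 1.90, 0.44 and −0.11.

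LBRKO mES cells showed the opposite direction at fewer loci. Of the 158 in the same test, 1 rose and 11 fell (0.411% and 0.469% of all copies), 6 of the 11 full-length, and 7 loci were called without LBRKO mES library 3 or 4. The median log2 change of the full-length loci was −0.53, against 0.26 over all copies. The passage of WT cells to EpiLCs lowered 45 loci and raised 12 (10.7% and 10.1% of all copies), and 23 of the 45 were full-length. In TKO cells the passage lowered 61 and raised 5 (9.23% and 6.56%), 40 of the 61 full-length. These counts include full-length loci that passed the filter only through the QKO mES libraries. With the filter set without those, 14 of 32 full-length loci fell in the WT passage and 21 of 32 in the TKO passage. Their median log2 changes were then −0.95 and −2.85, against −1.48 and −3.59 with the filter over all libraries. In TKO EpiLCs 7 rose and 4 fell against WT EpiLCs (2.25% and 0.542%). In LBRKO EpiLCs 4 rose and 2 fell (1.35% and 0.283%), and in the passage of LBRKO cells 11 rose and 17 fell (5.79% and 6.32%). In QKO EpiLCs 57 rose and 5 fell (31.8% and 1.34% of all copies), so the members' 36.1% was near the background, as was their median change of 1.01 beside the 0.85 of all copies. With libraries scaled on the TE copies themselves in place of the genes, 24 rose and 8 fell. From TKO to QKO EpiLCs 30 rose and none fell (13.3% and 0.569%).

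Counted as single annotated copies rather than joined loci, 230 members were tested, and 138 passed a filter set without the QKO mES libraries. The counts here are out of the 230, so they include copies that passed only through those libraries. Calls with the other filter are given in the section on processing. There were 84 copies that rose and 7 that fell in TKO mES cells (3.14% and 0.758% of all copies), and in LBRKO mES cells 1 rose and 18 fell (0.413% and 0.475%). The passage to EpiLCs raised 10 and lowered 81 in WT cells (10% and 10.8%), 7 and 105 in TKO cells (6.56% and 9.26%), and 8 and 34 in LBRKO cells (5.78% and 6.33%). In EpiLCs fewer copies differed between the genotypes, except in QKO. There 5 rose and 4 fell in TKO (2.25% and 0.542%), 2 and 2 in LBRKO (1.35% and 0.281%), and 64 and 5 in QKO EpiLCs (31.8% and 1.34%). From TKO to QKO EpiLCs 22 rose (13.2%) and none fell (0.569%), and 3 exceeded the sum of the LBRKO and TKO changes (0.838%, against 0.095% the other way).

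**Figure D3:**
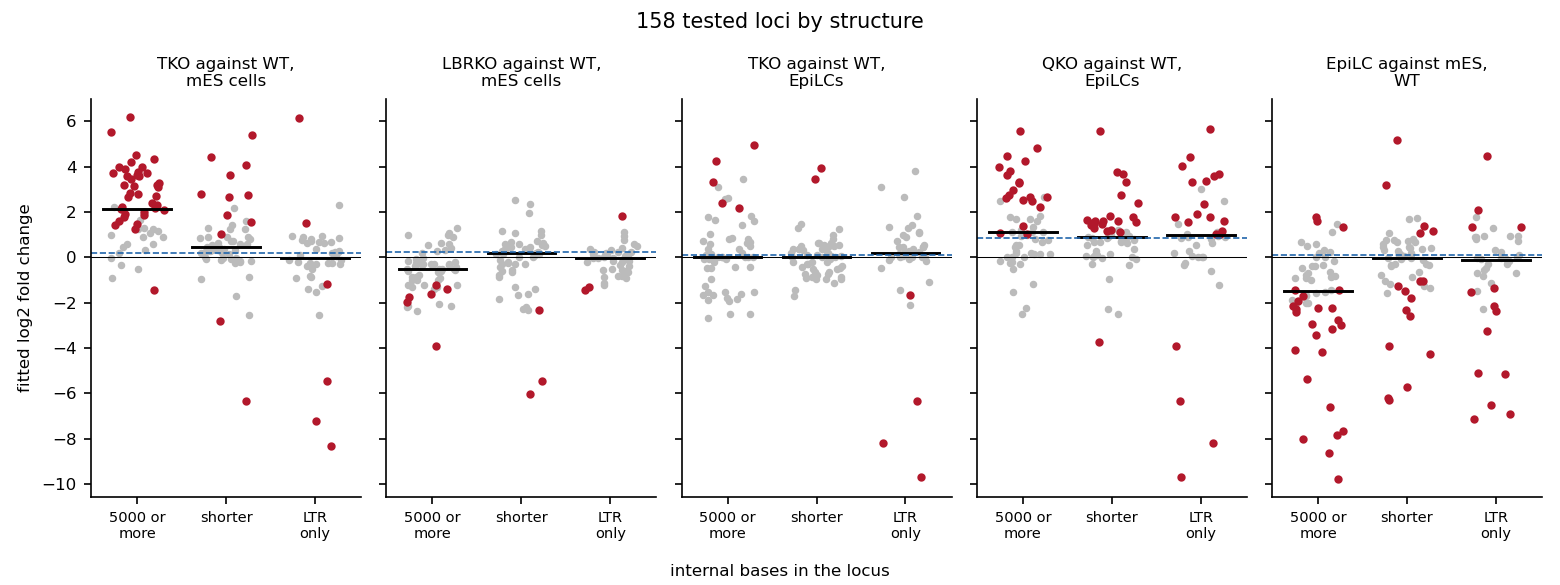
Fitted log2 fold change of 158 tested loci in 5 comparisons, split by internal length (5000 or more bases, shorter, LTR only), passing the filter over all 40 libraries, with red points past both thresholds, black bars at class medians and a dashed line at the median of all TE copies tested. Full-length loci have a median of 2.15 in TKO mES cells and −0.53 in LBRKO mES cells, and in QKO EpiLCs all 3 class medians lie near the dashed line.

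The highest locus was the one whose ends are printed above, chr15:33831595-33838615 on the plus strand, inside *Gm49089*, an annotated gene model of unknown function on the same strand. It had 3.92 to 9.87 CPM in the 8 WT mES libraries (median 6.20), and 18.4, 17.9, 17.9 and 18.9 CPM in TKO mES cells. In QKO mES cells it had 133, 149, 135 and 128 CPM, and the 3 groups did not overlap. In LBRKO mES cells it had 4.37, 4.45, 2.87 and 2.47 CPM, which overlapped WT. TKO exceeded WT mES cells by 1.48 (log2, SE 0.17, adjusted p = 6.93e-11, edgeR). The gene row of *Gm49089* counts the same reads.

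The second, chr4:8117035-8124476 on the plus strand, covers the processed pseudogene *Gm11800* and went from almost no reads to a high level. In WT mES cells it had 0 to 0.153 CPM (median 0.0362) and in LBRKO mES cells 0 to 0.0749 CPM. In TKO mES cells it had 2.07, 3.08, 3.06 and 3.47 CPM, and in QKO mES cells 71.2, 82.3, 79.8 and 80.8 CPM. None of these 3 levels overlapped, and TKO exceeded WT mES cells by 5.54 (SE 0.29, adjusted p = 3.11e-26, edgeR).

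The third lies in the intron of *Drd3*, a dopamine receptor gene, on the opposite strand (chr16:43584453-43591879). It had 1.28 to 3.03 CPM in WT (median 1.72), 6.93, 8.14, 7.66 and 8.69 CPM in TKO, and 60.1, 68.9, 65.5 and 62.6 CPM in QKO mES cells. LBRKO mES cells had 1.08, 1.3, 0.198 and 0.374 CPM, so that 3 of the 4 lay below all WT libraries and the highest just above the lowest of them. Against WT the change was 2.02 in TKO (SE 0.22, adjusted p = 7.57e-12) and −1.39 in LBRKO (SE 0.26, adjusted p = 0.000496), both edgeR. Against WT 1 to 4 alone the LBRKO difference was −0.95 (edgeR adjusted p = 0.0126), under 2-fold. *Drd3* itself had at most 0.058 CPM in any group mean.

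The fourth, chr8:20119650-20127119, lies in the exon of the lncRNA gene *Gm63874* on the same strand. It had 1.51 to 4.71 CPM in WT, 8.42, 7.43, 8.40 and 8.86 CPM in TKO, 61.5, 69.9, 61.4 and 62.1 in QKO, and 1.69, 1.99, 0.812 and 0.799 CPM in LBRKO mES cells. The change against WT was 1.44 in TKO (adjusted p = 3.42e-08) and −1.20 in LBRKO (adjusted p = 0.000457, both edgeR). The LBRKO difference was −0.58 against WT 1 to 4 alone (edgeR adjusted p = 0.0688) and −0.625 with the replicate number as a block (edgeR adjusted p = 0.0374), and was not called in either. Extra copies of chromosome 8 are reported for TKO cells and for part of the WT cells. The median log2 change of its 1236 genes was −0.06 in TKO mES cells, and the part of copy number in the locus's values was not tested.

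The fifth, chrY:43879801-43887212 on the minus strand, is 17941 bp from the lncRNA gene *Gm57982*. It had 0.396 to 1.14 CPM in WT, 0.812, 0.881, 0.395 and 0.250 in LBRKO, 7.42, 8.67, 6.48 and 8.58 in TKO, and 46.2, 54.6, 48.5 and 47.6 CPM in QKO mES cells. TKO exceeded WT by 3.45 (SE 0.21, adjusted p = 3.96e-23, edgeR). Loss of the Y is reported for part of the cells, and 4 Y-linked genes (*Kdm5d*, *Ddx3y*, *Uty*, *Eif2s3y*) summed to 162 ± 13.9 CPM in WT, 138 in LBRKO, 172 in TKO and 252 ± 12.4 in QKO mES cells. The part of this in the locus's values was not tested.

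Loci of lower level followed the same order of groups. The provirus 16558 bp from *Lmbrd2* (chr15:9219127-9226613) had 0.339 to 0.822 CPM in WT, 2.01, 2.05, 2.77 and 2.5 in TKO, 18.7, 21.3, 22.1 and 20.7 in QKO, and 0.0659, 0.162, 0.110 and 0.325 CPM in LBRKO mES cells. All 4 LBRKO values lay below all 8 WT values, with a change of −1.73 (SE 0.34, adjusted p = 0.000981, edgeR). A solo LTR on the X, chrX:112914429-112914901, 141547 bp from the nearest gene, had 0.486 ± 0.177 CPM in WT, 1.41 ± 0.266 in TKO and 10.3 ± 0.809 in QKO mES cells (1.52 in TKO, adjusted p = 5.73e-05, edgeR). It was the highest locus without an internal part among those that rose in TKO mES cells. The provirus at chrX:33286468-33293895(+) had 1 read in the 8 WT mES libraries and 61 reads in the 4 TKO mES libraries, 0.412 to 0.673 CPM.

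**Figure D4:**
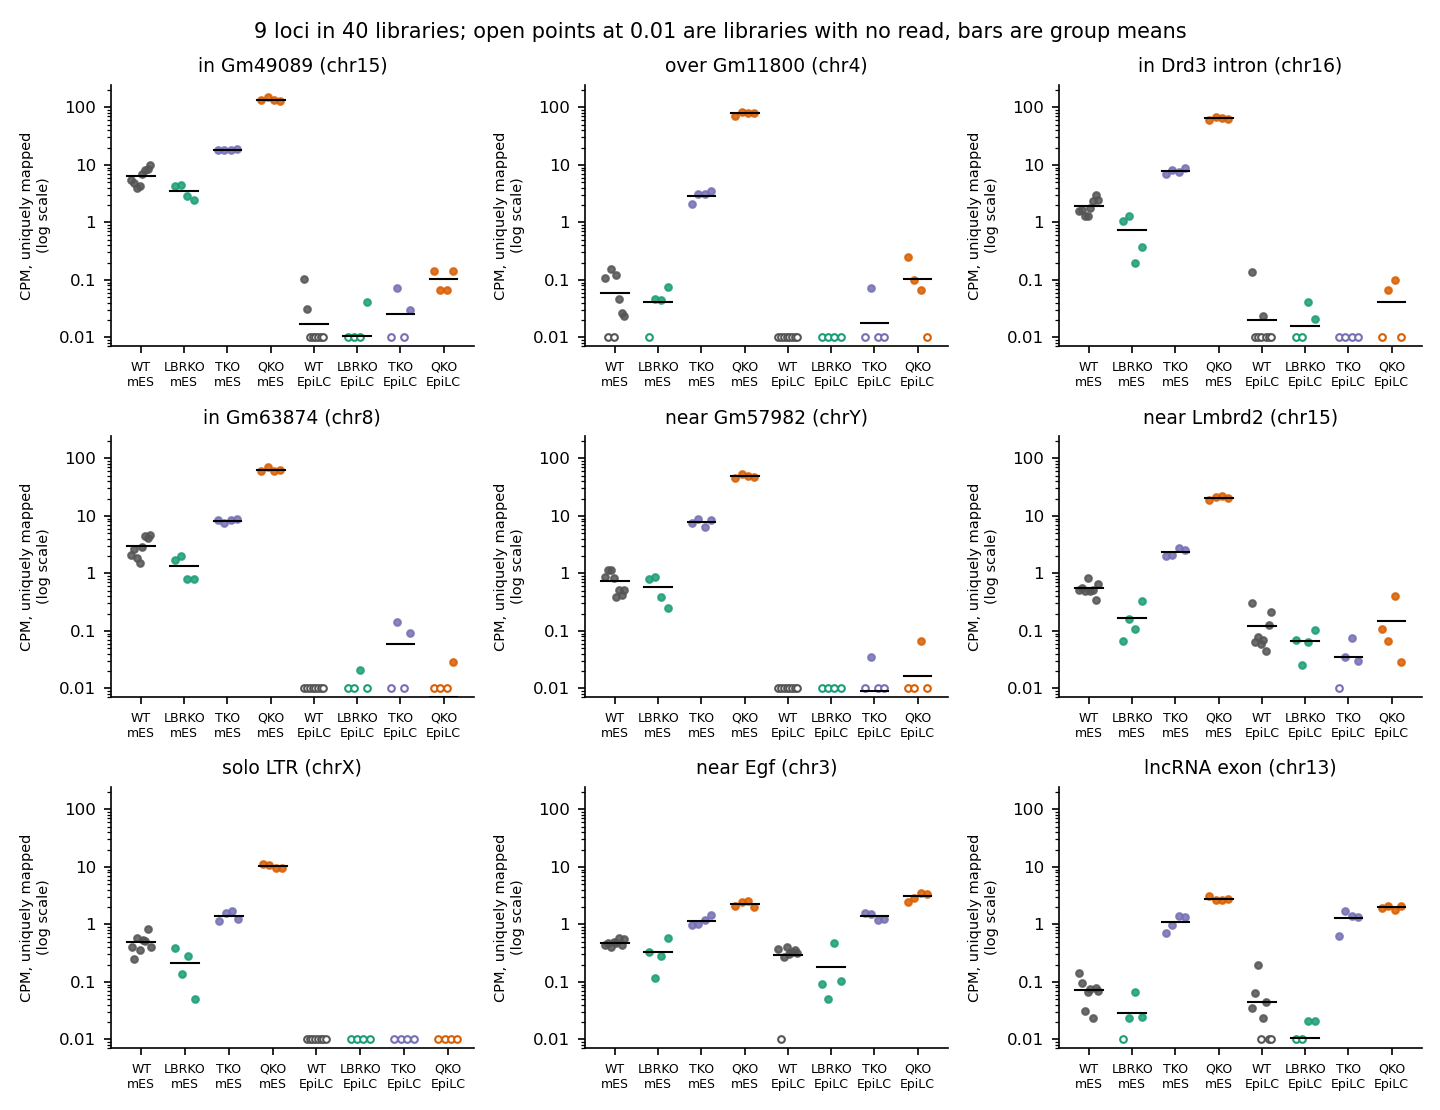
CPM of unique reads (log scale) at 9 loci in each of 40 libraries by group, with bars at group means and open points at 0.01 for libraries without a read. 7 loci step up from WT to TKO to QKO mES cells and have few or no reads in EpiLCs, and the loci near Egf and on chromosome 13 keep RNA in TKO and QKO EpiLCs, at means of 1.38 and 3.08 CPM (near Egf) and 1.27 and 1.97 CPM (chromosome 13).

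Within a provirus the LTRs differed in unique reads. Reads that match both LTRs equally well are not counted here, so these values do not give the whole level of either LTR. In the provirus over *Gm11800* the 5′ LTR had 0.0673 CPM and the 3′ LTR 5.25 CPM in QKO mES cells, though both are 514 to 515 bases long. The pair stood at 0.103 and 1.75 CPM in *Drd3*, 0.187 and 9.28 CPM in *Gm63874*, and 0.0411 and 4.44 CPM on the Y. In *Gm49089* the end pieces had 0.0093 and 11.6 CPM, but they are different parts of an LTR, of 136 and 360 bases. That locus is among the 115 counted next. Of 115 full-length loci with an LTR copy at each end, 14 had at least 0.1 CPM on one of them in QKO mES cells, and the 3′ copy was the higher in 12 of these. Summed over the 115, the 5′ copies had 1.21 and the 3′ copies 35.3 CPM. The sums in TKO mES cells were 0.577 and 4.37 CPM, with the 3′ copy higher in 6 of 7 loci, and in WT mES cells 0.238 and 1.33 CPM, higher in 3 of 3.

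Coverage by unique reads was uneven along single proviruses. On the Y, annotated pieces held between 0.088 and 9.61 CPM per kb in QKO mES cells, and reads were spread over the internal part. In *Drd3* 1 piece of 427 bases held 84.2 CPM per kb. A piece without unique reads can be one that is identical elsewhere in the genome, so these profiles do not give the shape of the transcript.

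**Figure D5:**
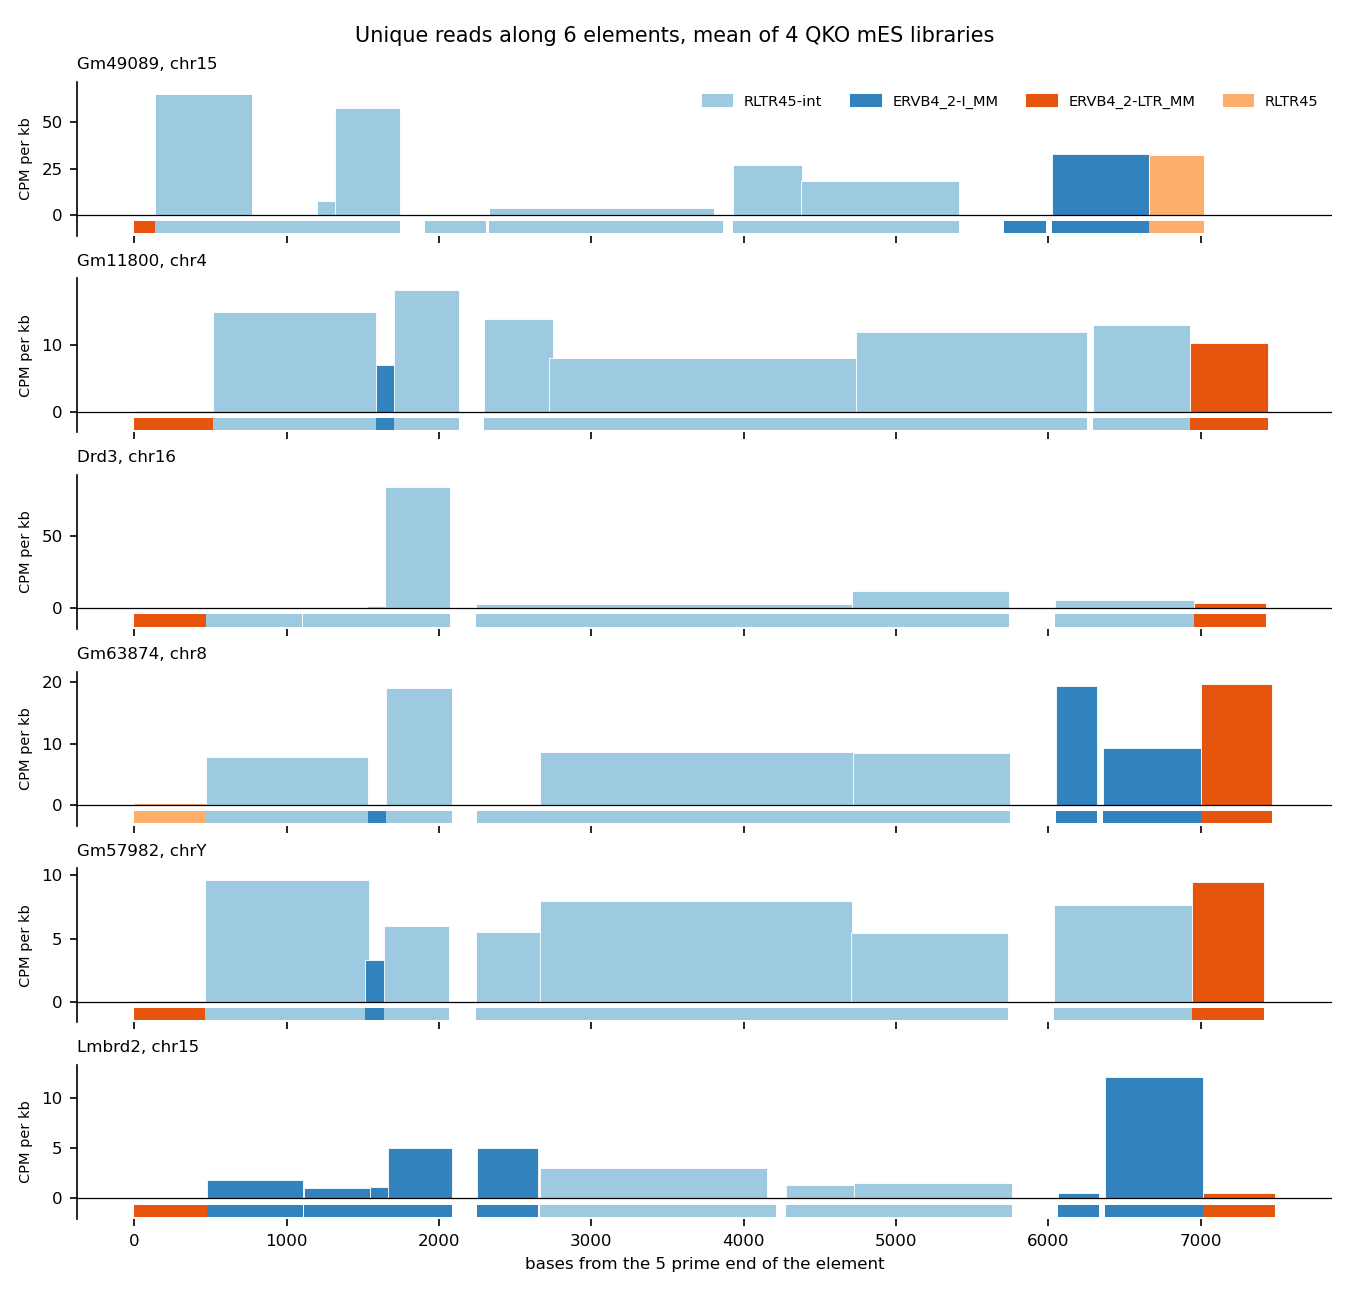
Unique reads in CPM per kb over each annotated piece of 6 proviruses in QKO mES cells (mean of 4 libraries), against distance in bases from the 5 prime end, with a strip under each axis coloured by family. The piece at the left end, the 5′ LTR, has 0.0196 to 0.395 CPM per kb, and the piece at the right end, the 3′ LTR, has 0.516 CPM per kb near Lmbrd2 and 3.74 to 32.3 CPM per kb in the other 5.

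In EpiLCs the leading loci had few reads or none in all genotypes. The 8 WT EpiLC libraries, with an effective total of 302 M reads, held 4 reads of the provirus in *Gm49089*, 5 of that in *Drd3* and 36 of that near *Lmbrd2*. They held none of the proviruses in *Gm63874*, on the Y and over *Gm11800*, nor of the solo LTR on the X. A count of 0 allows up to 0.00992 CPM there, taking 3 reads as the limit, so the level fell at least 321-fold at *Gm63874*, at least 69.7-fold on the Y and at least 49.9-fold at the solo LTR from WT mES cells to WT EpiLCs. The change at *Gm49089* was −8.61 on the log2 scale (SE 0.29, adjusted p = 3.63e-41) and near *Lmbrd2* −2.16 (adjusted p = 3.69e-09), both edgeR. In TKO cells *Drd3* fell at least 285-fold, with 947 reads in mES cells and none in EpiLCs.

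QKO EpiLCs held 13 reads of *Gm49089*, 12 of *Gm11800*, 5 of *Drd3*, 1 of *Gm63874*, 2 of the Y provirus, 18 near *Lmbrd2* and none of the solo LTR. *Gm11800* thus stood at 0.104 CPM there against 0 in WT EpiLCs and 78.5 CPM in QKO mES cells. The passage differed between TKO and WT cells at 4 tested loci, all steeper in TKO (0.13% of all copies, with 0.0393% the other way). Near *Lmbrd2* the difference was −3.70 (SE 0.65, adjusted p = 0.00054), and in the intron of *Erc2* (chr14:27405344-27412703) −2.27 (SE 0.50, adjusted p = 0.0195), both edgeR. At *Erc2* WT kept 0.295 CPM in EpiLCs against 0.383 in mES cells, while TKO went from 1.33 to 0.202 CPM.

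Other loci had RNA in mutant EpiLCs, several of them in mutant mES cells as well. Of the 57 loci that rose in QKO EpiLCs 24 reached 0.5 CPM there, and 6 of these were full-length. The provirus 3238 bp from *Egf* (chr3:129459732-129467172, on the plus strand, the gene being on the other) had 0 to 0.410 CPM in WT EpiLCs (median 0.324), 1.59, 1.5, 1.18 and 1.24 CPM in TKO and 2.47, 2.89, 3.54 and 3.43 CPM in QKO EpiLCs, without overlap. It rose by 2.18 in TKO EpiLCs (adjusted p = 3.86e-07), by 3.34 in QKO EpiLCs (adjusted p = 2.01e-15) and by 1.16 from TKO to QKO EpiLCs (adjusted p = 0.0146, all edgeR). Its levels in mES cells were close to those in EpiLCs of the same genotype, with 0.482 CPM in WT, 1.15 in TKO and 2.27 in QKO.

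On chromosome 13 a provirus in an exon of the lncRNA gene ENSMUSG00000121455 (chr13:66522486-66529442) had 0 to 0.195 CPM in WT EpiLCs, 0.637, 1.71, 1.41 and 1.33 CPM in TKO and 1.93, 2.07, 1.79 and 2.1 CPM in QKO EpiLCs. It rose by 4.97 in TKO EpiLCs (SE 0.42, adjusted p = 2.27e-16, edgeR) and by 5.59 in QKO EpiLCs (SE 0.40, adjusted p = 2.57e-20, edgeR). The difference between QKO and TKO EpiLCs, 0.62 with SE 0.36, did not pass (edgeR adjusted p = 0.218). In mES cells it had 0.0232 to 0.146 CPM in WT, 0.713 to 1.39 in TKO and 2.63 to 3.06 CPM in QKO, and TKO exceeded WT by 3.92 (adjusted p = 2.46e-13, edgeR). A locus that had no read in TKO and QKO mES cells, chrX:13168719-13170092 over an exon of *Gm5380*, had 0.443 to 1.21 CPM in WT, 0.865 to 1.39 in TKO and 4.40, 3.67, 3.30 and 4.36 CPM in QKO EpiLCs (2.41 against WT, adjusted p = 2.93e-10, edgeR).

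The provirus at chr5:104882753-104891325, 59586 bp from the nearest gene, had 0 to 0.211 CPM in WT, 0 to 0.0209 in LBRKO, 0.114 to 0.546 in TKO and 0.958 to 1.48 CPM in QKO EpiLCs. QKO EpiLCs exceeded the sum of the LBRKO and TKO changes by 5.2 on the log2 scale (SE 1.09, adjusted p = 0.00286, edgeR), 1 of 3 loci where this passed (0.838% of all copies, with 0.0951% the other way). The fitted size rests on LBRKO EpiLCs with 1 library above 0. In mES cells the locus was higher, with 0.0987 to 0.743 CPM in WT, 1.07 to 2.18 in TKO and 2.99 to 4.44 CPM in QKO (TKO above WT by 2.16, adjusted p = 1.10e-05, edgeR). A solo LTR 5486 bp from *Stag3*, a cohesin gene of meiosis, had 0 to 0.150 CPM in WT and 0.715 to 1.15 CPM in QKO EpiLCs (4.02, adjusted p = 2.47e-08, edgeR), and *Stag3* itself rose from 46.2 to 95.3 CPM (1.04, adjusted p = 2.23e-11, edgeR). A solo LTR in the intron of *Nuggc*, on the opposite strand, had 0.0601 CPM in WT and 0.794 CPM in QKO EpiLCs (3.60), and *Nuggc* rose from 2.43 to 7.72 CPM (1.67, adjusted p = 1.06e-12, edgeR).

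At another locus LBRKO mES cells stood apart from the other genotypes, a full-length provirus 18037 bp from *Tdpoz1* (chr3:93601654-93609063, minus strand). It had 0.626 to 1.24 CPM in WT mES cells and 0.0439, 0.0695, 0.0219 and 0.0999 CPM in LBRKO mES cells, a change of −3.91 (SE 0.46, adjusted p = 6.67e-09, edgeR). TKO mES cells had 0.412 to 0.972 CPM, which overlapped WT, and QKO mES cells 3.98 to 4.92 CPM. In EpiLCs WT and TKO had no read, and LBRKO had a read in 2 of 4 libraries. The passage therefore differed between LBRKO and WT by 7.30 in the fit (SE 1.20, adjusted p = 8.99e-05, edgeR), a size that depends on how a count of 0 is handled, and 3 of 158 loci passed this test upwards (0.395% of all copies, with 0.0754% downwards). In WT cells the fall was at least 91-fold. Of the 6 full-length loci that fell in LBRKO mES cells, those at *Drd3*, *Gm63874*, *Lmbrd2* and on chromosome 5 (chr5:104882753) rose in TKO mES cells, that near *Tdpoz1* did not pass, and that at chr12:23747744-23755158(+) fell in TKO mES cells too, from 0.792 to 0.298 CPM. The LBRKO call at chr5:104882753, −1.95 (edgeR adjusted p = 0.0354), was lost with DESeq2, against WT 1 to 4 alone and without WT mES 2, 5 or 6 or LBRKO mES 2, 3 or 4.

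Other members behaved like parts of genes. An ERVB4_1B-LTR_MM piece of 64 bases in an exon of the proteasome gene *Psmd2* (chr16:20478811-20478874) had the most reads in EpiLCs, with group means from 26.5 to 35.3 CPM in all 8 groups. *Psmd2* itself had 545 CPM in WT and 477 CPM in QKO mES cells. The locus in an exon of *Norad* (chr2:156234373-156234880) had 6.92 to 23.4 CPM over the 40 libraries. *Norad* itself had 124 CPM in WT and 79.7 CPM in QKO mES cells. Reads of this locus are part of the unique sums of RLTR45-int in every group. Loci outside the full-length set that lie in exons summed to between 49.8 and 68.3 CPM in the 8 groups. An RLTR45 LTR in the intron of the lncRNA gene *AU020206* (chr7:75424287-75424742) fell in LBRKO mES cells from 3.37 to 1.25 CPM (−1.43, adjusted p = 2.69e-07) and in LBRKO EpiLCs from 5.86 to 2.75 CPM (−1.09, adjusted p = 2.64e-05, both edgeR). *AU020206* fell with it in LBRKO mES cells, from 48.8 to 19.2 CPM.

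A few short ERVB4_1C-LTR_Mm pieces had reads in WT and LBRKO cells and none in any TKO or QKO library. A piece of 124 bases in an intron of *Mtmr7* (chr8:41024441-41024564) had 0.801 to 1.67 CPM in WT mES cells and 1.87 to 3.58 CPM in WT EpiLCs, and 0 in all 16 TKO and QKO libraries, at least 46.4-fold lower in TKO than in WT mES cells and at least 108-fold lower in EpiLCs. *Mtmr7* had 69.3 CPM in WT and 68.8 CPM in TKO mES cells. Pieces at chr12:27469113-27469236(-) and chr9:50538266-50538389(-), of the same family, had no read in TKO or QKO libraries either, and 0.515 and 0.145 CPM in WT mES cells.

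Genes that act on such elements were looked up in a list of 47 gene symbols that bear on retrotransposon silencing (H3K9 and DNA methylation, TRIM28 and its partners). Of these, 45 were found and tested, and H3-3a and H3-3b were not found under those symbols. In TKO mES cells 1 rose and none fell, where 2.47% of all genes rose and 4.23% fell. It was *Dnmt3l*, the cofactor of the de novo DNA methyltransferases, from 23.7 ± 5.12 to 57.2 ± 4.57 CPM (1.27, adjusted p = 3.50e-13, edgeR). *Dnmt3l* rose in LBRKO mES cells too, to 174 ± 6.88 CPM (2.87, adjusted p = 3.64e-24, edgeR), where the proviruses were lower, and *Zfp819*, a KRAB zinc finger gene, fell there by 1.38. *Trim28* had 1866 CPM in WT mES cells and differed by at most 0.25 (log2) in every comparison against WT of the same stage, and *Setdb1* was higher by 0.38 in TKO mES cells (edgeR adjusted p = 2.14e-06), under 2-fold. In QKO EpiLCs *Dnmt3l*, *Morc1* and *Tet1* rose by 2.11, 1.97 and 1.06 and none fell (13.6% of all genes rose, 7.68% fell). In the passage of WT cells 5 rose and 3 fell (17.3% and 13.7% of all genes), among them *Dnmt3a* and *Dnmt3b* up by 3.98 and 4.26.

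Of 26 symbols listed for genes that sense viral RNA or restrict retroviruses 21 were tested. In TKO mES cells *Oasl1* rose by 1.08, and *Ifih1*, *Tlr3* and *Bst2*, a pair of RNA sensors and a restriction factor, fell by 2.75, 2.38 and 1.14. In LBRKO mES cells 1 of the 21 rose and 1 fell (3% and 3.31% of all genes), the latter *Ifih1* by 1.55. In QKO EpiLCs 3 rose and 3 fell (13.6% and 7.68% of all genes), among them *Rigi* and *Ifit1* up by 1.18 and 1.86, and *Ifih1* and *Oasl1* down with log2 changes of −1.56 and −1.09. None of the 21 passed in TKO EpiLCs (1.56% of all genes rose and 1.31% fell) or in LBRKO EpiLCs (3.2% and 2.48%).

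Over the 40 libraries the family whose log2 CPM ran closest to RLTR45-int was ERVB4_2-I_MM, with Pearson's r of 0.988. RLTR10D2 (0.952), RLTR13D4 (0.937), RLTR13B1 (0.931) and IAP-d-int (0.927), all outside the members, came next, and the member least like it was ERVB4_1C-LTR_Mm (−0.231). These 40 points share 8 groups and 1 pool of libraries, and the values describe likeness alone.

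Libraries held 22.6 to 48.9 M reads over genes and 2.76 to 7.83 M unique reads over TE copies, and no pair of replicates was alike enough to be 1 library. All of the naive markers tested, 8 of 8, fell and 6 of 6 primed markers rose in the passage of WT cells. The targeted genes *Lmnb1* (526 CPM in WT mES cells, 8.36 in TKO, 13.4 in QKO) and *Lmnb2* were low in TKO and QKO libraries. *Lmna* had 59.1 CPM in WT, 15.7 in TKO and 18.4 in QKO mES cells, and in EpiLCs 11.1, 7.80 and 8.47 CPM, where it did not pass the thresholds against WT (−0.51 in TKO and −0.39 in QKO). *Lbr* RNA was lowered in part, from 380 CPM in WT to 213 ± 66.3 in LBRKO and 229 in QKO mES cells. Genes of 2-cell-like cells, which switch on other retroviruses, fell in TKO and LBRKO mES cells (5 of 5 tested, where 4.23% and 3.31% of all genes fell), and their sum was 0.146 to 1.78 CPM in WT, 0 to 0.0749 in LBRKO, 0 to 0.0648 in TKO and 0 to 0.111 CPM in QKO mES cells.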

How the data were processed

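RNA of 40 libraries in 8 groups had been made into sequencing libraries with a stranded total RNA kit after ribosomal depletion. The authors trimmed reads with cutadapt, aligned them to GRCm39 with STAR and deposited raw read counts with no normalisation. Gene counts and counts of single TE copies came from featureCounts, the latter from reads with a single alignment, and family counts from TEcount, which shares reads with several alignments among families. The strand setting of the counting and the mouse strain are not given in the sources used here, and a unique read is unique relative to the reference genome. Gene models came from GENCODE M30, and 56017 of 56748 gene rows were matched by ID to a symbol of GENCODE M39. The members and all gene lists were chosen with earlier results of these data known. Changes of some genes of the list of viral RNA sensors and restriction factors are not reported here.

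Counts were fitted with edgeR 4.0.16 (quasi-likelihood test, TMM factors, filterByExpr by group, 1 model over all 40 libraries) in R 4.3.3. Families were fitted together with genes, and single copies or loci together with all other TE copies, scaled by the totals and TMM factors of the gene table. A change was called at a Benjamini-Hochberg adjusted p under 0.05 and a fold over 2. Named loci were those holding the 12 copies with the highest mean CPM over 40 libraries or, in a tested comparison, the 3 largest called changes without overlap of the libraries and with at least 0.5 CPM in the higher group. The 20 loci of highest mean CPM and the 3 largest called changes of joined loci were added after the data were seen, as were the loci at *Egf*, *Gm5380*, *Erc2*, chrX:33286468 and chr12:23747744. CPM values divide counts by the effective library size. Copies of the same strand within 1000 bp were joined to loci, and sequences were read from GRCm39 with pysam 0.24.0. Gene tables had 22.6 to 48.9 M reads per library, and a count of 0 is given with a limit of 3 reads, which covers counting error only.

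The fits were tested on simulated counts. At 2-, 4-, 8- and 16-fold changes, 74%, 90%, 98% and 100% of changed features were significant among 26523 genes and families, and 0%, 52%, 68% and 88% among 127346 TE copies, whose reads are fewer. DESeq2 1.42.0, other scalings, filters, distances in the search for LTRs and sets of WT libraries were tried as alternatives. The distance of 1000 bp for joining copies to loci was not varied.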

Additional observations from a re-analysis of the deposited data

Results flagged for a closer look

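Among families, 6 values lay far from the others of their group. In LBRKO EpiLC 3, ERVB4_1B-LTR_MM had 8.31 CPM (others 4.67 to 5.12), ERVB4_1C-LTR_Mm 18.9 CPM (10.3 to 11.2) and RLTR45 20.3 CPM (13.7 to 14.7). ERVB4_2-LTR_MM had 15.3 CPM in LBRKO mES 2 (2.57 to 2.92) and 20.2 CPM in LBRKO EpiLC 1 (2.13 to 2.68). ERVB4_2-I_MM had 4.17 CPM in WT EpiLC 5 (5.4 to 6.17).

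Among named loci, 8 values lay apart in the same way. In LBRKO mES 3, chr12:76275420 had 2.41 CPM (others 1.11 to 1.3) and chr13:66774602 also 2.41 CPM (0.849 to 1.11). The locus chr15:99052453 had 3.71 CPM in LBRKO EpiLC 3 (1.42 to 1.66) and 1.68 CPM in QKO EpiLC 1 (1.26 to 1.31). In QKO mES cells, chr12:76275420 had 1.11 CPM in library 1 (0.592 to 0.664), chr4:124247508 had 1.66 CPM in library 4 (1.37 to 1.41), and the provirus in *Gm63874*, chr8:20119650, had 69.9 CPM in library 2 (61.4 to 62.1). The locus chr9:84772133 had 0.9 CPM in LBRKO mES 1 (0.417 to 0.499). In all 14 of 206 groups of values were picked out, where chance gives about 1 in 20, and 6 of them were in library 3 of an LBRKO group.

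Effects of 1 contrast that differed between genotypes by the edgeR test of the difference (log2) were as follows. QKO EpiLCs exceeded the sum of the LBRKO and TKO changes by 1.03 for ERVB4_2-I_MM (adjusted p = 6.00e-05), by 2.55 at chr11:121825754 (adjusted p = 0.0124), by 5.2 at chr5:104882753 (adjusted p = 0.00286) and by 1.17 at chr7:75424287 (adjusted p = 0.00879). The passage to EpiLCs differed between TKO and WT cells by −1.46 for ERVB4_2-I_MM, by −1.86 for ERVB4_3-I_MM, by −1.37 for RLTR45-int, by −2.27 at chr14:27405344 (*Erc2*) and by −3.7 at chr15:9219127 (*Lmbrd2*). It differed between LBRKO and WT cells by 7.3 at chr3:93601654 (*Tdpoz1*), where WT EpiLCs had no read.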

How the results depend on the processing

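Counts of called members (in brackets, the reported count) moved by more than 1.5 times under these settings, and where no cause is given it was not tested. Loci and passages beyond the WT passage, their alternatives, and the filter without QKO mES libraries were chosen after seeing the data. With that filter, which tests fewer copies, 46 copies were called in TKO mES cells (91), 12 in LBRKO mES cells (19), 55 in the WT passage (91) and 53 in the TKO passage (112), where 43 loci were called (66). With TMM on the copy table, QKO EpiLCs had 37 copies (69) and 32 loci (62), QKO against TKO EpiLCs 10 copies (22) and 14 loci (30), the TKO passage differed from WT at 2 copies (1) and the LBRKO passage at 1 (0). With a minimum of 20 counts, QKO EpiLCs had 105 copies, the WT passage 150 copies and 105 loci (57), LBRKO EpiLCs 3 loci (6) and the TKO passage difference 2 copies. With DESeq2, LBRKO EpiLCs had 0 families (1), the excess over additivity in EpiLCs 6 copies and 7 loci (3 each), and the TKO passage difference 2 copies. With unique reads summed per family, the counts were 3 in TKO mES cells (5), 0 in the WT passage (3), 0 in LBRKO EpiLCs (1), 4 in QKO EpiLCs (2, neither of them among the 4), 2 from TKO to QKO EpiLCs (0), 2 for the excess over additivity (1) and 0 for the TKO passage difference (3), and ERVB4_2-LTR_MM in LBRKO EpiLCs turned to −0.086 from 1.65. With WT 1 to 4 alone, the WT passage had 56 copies and 1 family, TKO EpiLCs 7 loci (11) and the excess 2 families. With WT 5 to 8 alone, LBRKO EpiLCs had 2 loci, the excess 7 loci and 0 families, the TKO passage difference 2 copies and the LBRKO passage difference 1 family (0). With LTRs sought within 100 bp, 336 loci had one at both ends (618).

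Leaving out each library in turn gave these ranges, in the order copies, families and loci. For copies and loci these fits kept the trend of spread estimated from all 40 libraries, so they are not full repeats of the reported fit. Some reported counts lie above their ranges. These are 22 copies and 30 loci from TKO to QKO EpiLCs, 91 copies in the WT passage, and 112 copies and 66 loci in the TKO passage. They were 80 to 91, 4 to 5 and 50 to 58 in TKO mES cells, 9 to 22, 0 to 0 and 7 to 15 in LBRKO mES cells (lowest without library 3, for loci also without 4), 1 to 7, 0 to 1 and 2 to 6 in LBRKO EpiLCs, and 8 to 12, 0 to 0 and 10 to 13 in TKO EpiLCs. They were 55 to 70, 1 to 3 and 54 to 66 in QKO EpiLCs, 15 to 21, 0 to 0 and 20 to 26 from TKO to QKO EpiLCs, 83 to 89, 3 to 3 and 52 to 60 in the WT passage, and 3 to 7, 0 to 3 and 3 to 9 for the excess. For the TKO passage they were 101 to 108, 4 to 5 and 60 to 64, for the LBRKO passage 34 to 46, 0 to 1 and 22 to 29, and for their differences from WT 0 to 2, 3 to 3 and 2 to 5 (TKO) and 0 to 1, 0 to 1 and 1 to 5 (LBRKO). In LBRKO EpiLCs the lowest counts of copies and loci came without LBRKO EpiLC 4. The QKO EpiLC count of families was 1 without QKO EpiLC 1, WT EpiLC 1 or WT EpiLC 5, and that of the excess was 0 without LBRKO EpiLC 1 or QKO EpiLC 2 and 3 without LBRKO EpiLC 3.

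Replicate numbers did not pair the samples, since same-numbered WT mES and EpiLC libraries correlated by 0.003 to 0.422 in their deviations, LBRKO by −0.138 to 0.331 and TKO by −0.073 to 0.08. With the number as a replicate block, 4 families (5) and 51 loci (57) were called in TKO mES cells, 7 copies (4) in LBRKO EpiLCs, 2 copies (1) for the TKO and 1 copy (0) for the LBRKO passage difference.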
